A study of Mus musculus with 5 samples.

Results

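Receptors for the Fc part of antibodies and the small adaptors that carry their signal were followed in macrophages exposed to bacterial lipopolysaccharide (LPS). The members were the 5 genes Fcgr1, Fcgr2b, Fcgr3, Fcer1g and Tyrobp, taken wherever a probe carried that symbol alone in the platform annotation. Of these, 4 had a probe, 1 each, among 19828 probes on the array and among 8452 named genes with a value on all 5 arrays. No probe carried the symbol Fcgr3 alone, and that gene was not analysed here. Probes with several symbols were not searched for it.

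Marrow cells of C3H/HeJ mice had been grown into macrophages in vitro with human CSF-1, on which these cells depend. C3H/HeJ mice carry a mutation in Tlr4, the LPS receptor, that leaves them hyporesponsive to LPS, and this holds for the unexposed cells too. They received LPS from Salmonella minnesota at 10 µg per ml for 0.5, 2, 7 or 21 h, or none (0 h). RNA of each time was hybridised to 1 two-colour array together with RNA of whole C57BL6/J embryos at 17.5 days, so there were 5 groups of 1 array, no replicates and no tests, and precision is limited by the number of arrays.

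Fc receptors bind the constant part of antibodies and let macrophages take up coated particles. Activating receptors such as the high-affinity IgG receptor encoded by Fcgr1 and the low-affinity receptor encoded by Fcgr3 have no signalling motif of their own and pair with the gamma chain encoded by Fcer1g. The gamma chain and Tyrobp (also called DAP12) carry immunoreceptor tyrosine-based activation motifs (ITAM), which Src-family kinases phosphorylate and which recruit the kinase Syk. Fcgr2b encodes the inhibitory IgG receptor, whose own motif recruits the lipid phosphatase encoded by Inpp5d.

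Values are log ratios of macrophage over embryo RNA at the same probe, read as base 10 and centred on each array at the median of all genes. The labels state neither the base nor the numerator, and the direction is likely only. It was taken from the sign of macrophage and embryo markers. Of 6 measured macrophage markers 4 were at least 2-fold above embryo on each of the 5 arrays. Cd68 (-0.31 to -0.09) and Marco (-0.13 to 0.04) were not. The 7 embryo erythroid and liver genes had medians between -1.60 and -0.64. A log ratio compares 2 RNAs at 1 probe and does not rank the abundance of different genes. In bulk RNA, fewer expressing cells and less RNA per cell cannot be told apart.

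Fcgr1 and Fcer1g, a receptor and its signalling subunit, stood far above embryo, whereas the inhibitory receptor gene Fcgr2b and the adaptor gene Tyrobp did not. On the arrays of 0, 0.5, 2, 7 and 21 h, the order kept for every series of values, the centred log ratio of Fcgr1 was 1.19, 0.30, 1.72, 1.71 and 1.11. It was high on 4 arrays and low on the 0.5 h array. Read as base 10, these ratios correspond to 15.7-fold at 0 h and 52.6-fold at 2 h, and read as base 2 to 2.29-fold and 3.30-fold. Among the 8452 genes Fcgr1 ranked between 5th and 16th from the top on those 4 arrays, but 1987th at 0.5 h. All ranks rest on the likely direction: with the ratio turned, they count from the bottom.

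The Fcer1g log ratio was 0.57, 1.07, 0.97, 0.67 and 0.73. All 5 values were above embryo, and the 0.5 h and 2 h arrays held the highest. Its rank from the top was 156, 408, 96, 234 and 78. The rank at 0.5 h was the lowest although the ratio was the highest; the 0.5 h array had a wider spread of ratios (SD over genes 0.54) than the 0 h array (0.27).

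Because Fcgr1 and Fcer1g were the members above embryo and the members at least 2-fold higher at 2 h, their promoter windows are shown, from 250 bases before to 50 bases after the annotated gene start (RefSeq, GRCm38.p6, a C57BL/6J assembly, not the strain of these cells). Both are written 5′ to 3′ on the gene's own minus strand. They cover chr3:96293920-96294219 for Fcgr1 and chr1:171234300-171234599 for Fcer1g. Capitals mark matches, on either strand, to GAGGAA (a core letter run of PU.1, the myeloid transcription factor).

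Fcgr1: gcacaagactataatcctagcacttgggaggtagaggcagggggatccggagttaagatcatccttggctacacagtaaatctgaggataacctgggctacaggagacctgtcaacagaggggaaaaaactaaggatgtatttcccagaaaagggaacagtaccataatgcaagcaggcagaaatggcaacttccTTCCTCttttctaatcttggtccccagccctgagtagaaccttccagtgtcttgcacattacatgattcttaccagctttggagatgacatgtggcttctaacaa

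Fcer1g: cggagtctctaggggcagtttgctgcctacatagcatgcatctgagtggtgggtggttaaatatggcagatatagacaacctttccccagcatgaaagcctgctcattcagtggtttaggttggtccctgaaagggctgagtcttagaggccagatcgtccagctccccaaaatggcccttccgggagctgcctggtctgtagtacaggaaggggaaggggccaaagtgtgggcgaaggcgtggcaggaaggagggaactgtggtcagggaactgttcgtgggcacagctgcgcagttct

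The Fcgr1 window held 1 PU.1 core match, on the opposite strand (TTCCTC), starting 55 bases before the gene start. The Fcer1g window did not hold this letter run. Of 32851 promoter windows of the same length, 28.3% held the PU.1 core. The Fcgr2b window did not hold it, and the table used here gave no window for Tyrobp. A match describes letters, not binding.

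Fcgr2b, the inhibitory receptor gene, was within 2-fold of the array median on all 5 arrays, though only just at 2 h. Its log ratio was -0.11, -0.19, -0.28, 0.04 and 0.09 over the 5 arrays. The 3 earlier arrays were below 0 and the 2 later ones above it. Of 8452 genes it ranked 7259th from the top at 2 h and 2739th at 21 h.

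Tyrobp, the adaptor of many myeloid and NK cell receptors, was below 0 on all 5 arrays. The values were -0.05, -0.20, -0.17, -0.29 and -0.18. The highest value was that of the unexposed cells and the lowest that at 7 h, where it ranked 7723rd from the top. The macrophage marker Cd68 was likewise below 0 on all 5 arrays, and Marco lay between -0.13 and 0.04. Lgals3 lay between 0.40 and 0.63 and Lyz2 between 0.64 and 1.31, whereas Lcp1 and Lilrb4a were above 1 on each array. Why Tyrobp, Cd68 and Marco, genes known from macrophages, read near or below embryo was not tested. Each of them stands on 1 probe.

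By the size rule of 2-fold (0.301 in log10 units), 2 of the 4 members were above embryo at 0, 2, 7 and 21 h, and 1 at 0.5 h, where Fcgr1 (0.299) lay just under the rule. The share of all genes above embryo by this rule was 8.99%, 23.4%, 13.4%, 12.6% and 9.67% on the arrays in order of time, and the share below embryo, which would change places with it if the ratio were turned, was 8.9%, 17%, 12.9%, 8.02% and 9.12%. With 4 members a count of 2 is a description only. Over the 4 arrays other than 0.5 h, the log ratio averaged 1.43 ± 0.33 for Fcgr1, 0.74 ± 0.17 for Fcer1g, -0.07 ± 0.17 for Fcgr2b and -0.17 ± 0.10 for Tyrobp (SD over these 4 arrays, which are different times and not replicates).

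**Figure D1:**
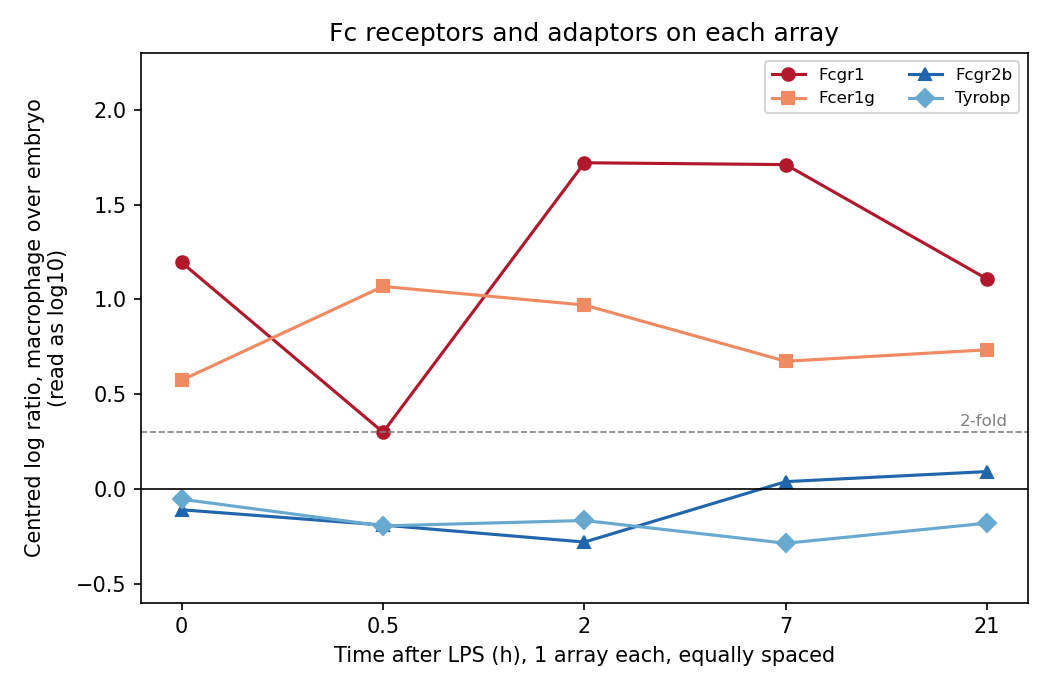
Centred log ratio of macrophage over embryo RNA (vertical axis, read as log10) for the 4 measured members on the 5 arrays (horizontal axis, hours after LPS, equally spaced); each point is 1 probe on 1 array, lines join the points of a gene, and the dashed line is 2-fold. Fcgr1 and Fcer1g lie above 0 on all 5 arrays, Tyrobp lies below 0 on all 5, and Fcgr1 falls to 0.30 on the 0.5 h array (-0.46 with a loess trend removed, which is not drawn).

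Against the unexposed cells, Fcgr1 was higher at 2 h and 7 h and near its starting value at 21 h. Its differences at 2, 7 and 21 h were 0.53, 0.52 and -0.09, which on base 10 is 3.36-fold higher, 3.28-fold higher and 1.22-fold lower. The only error these arrays offer is the spread between probes of the same gene, pooled over 2968 genes with at least 2 probes. The SD of these differences was 0.48, 0.16, 0.16 and 0.19 for 0.5, 2, 7 and 21 h; variation among cultures and hybridisations is not part of it. The Fcgr1 differences were 3.20 times this SD at 2 h and 3.27 times at 7 h, and the one at 21 h was smaller than the SD. In order of log ratio the Fcgr1 arrays ran 2 h, 7 h, 0 h, 21 h and 0.5 h; 2 h and 7 h, and 0 h and 21 h, did not differ beyond the probe spread.

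Fcer1g was higher at 2 h by 0.40, which is 2.49-fold on base 10, and differed by 0.10 and 0.16 at the later times. The 2 h difference was 2.42 times the probe SD, and those at 7 h and 21 h were smaller than it. At 2, 7 and 21 h Fcgr2b differed by -0.17, 0.15 and 0.20, and Tyrobp by -0.11, -0.23 and -0.13. None of these 6 values reached 2-fold. The Tyrobp value at 7 h was 1.47 times the probe SD and lower than the difference of all but 3.04% of genes.

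By the size rule 2 of 4 members were higher at 2 h, beside 4.24% of all genes, and 1 at 7 h, beside 3.35%. At 21 h no member was past it in either direction, beside 4.33% of genes higher and 4.69% lower. No member was lower by 2-fold at 2 h or 7 h, beside 2.58% and 1.4% of genes. The 4 differences share the 0 h array, so a chance value there enters each of them.

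The calls of Fcgr1 and Fcer1g depended on how the width of the ratios was treated. The 2 h array had a wider spread of ratios than the 0 h array (median absolute deviation over genes 0.162 and 0.128). Scaled to the 0 h width, the 2 h difference was 0.17 for Fcgr1 and 0.19 for Fcer1g, both under 2-fold. Once a loess trend against mean ratio had been subtracted, Fcgr1 lay at 0.03 at 2 h and 0.17 at 7 h. After quantile normalization it was at -0.21 at 2 h and at 0.00 at 7 h, where its rank was the same as at 0 h. That setting gives values by rank alone. Fcgr1 ranked 5th from the top at 0 h and 13th at 2 h. The part of its place near the top in these values was not tested. The 7 h difference of Fcgr1 was 0.47 after scaling to the 0 h width, where the 7 h array (0.132) was nearly as narrow as the 0 h array.

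**Figure D2:**
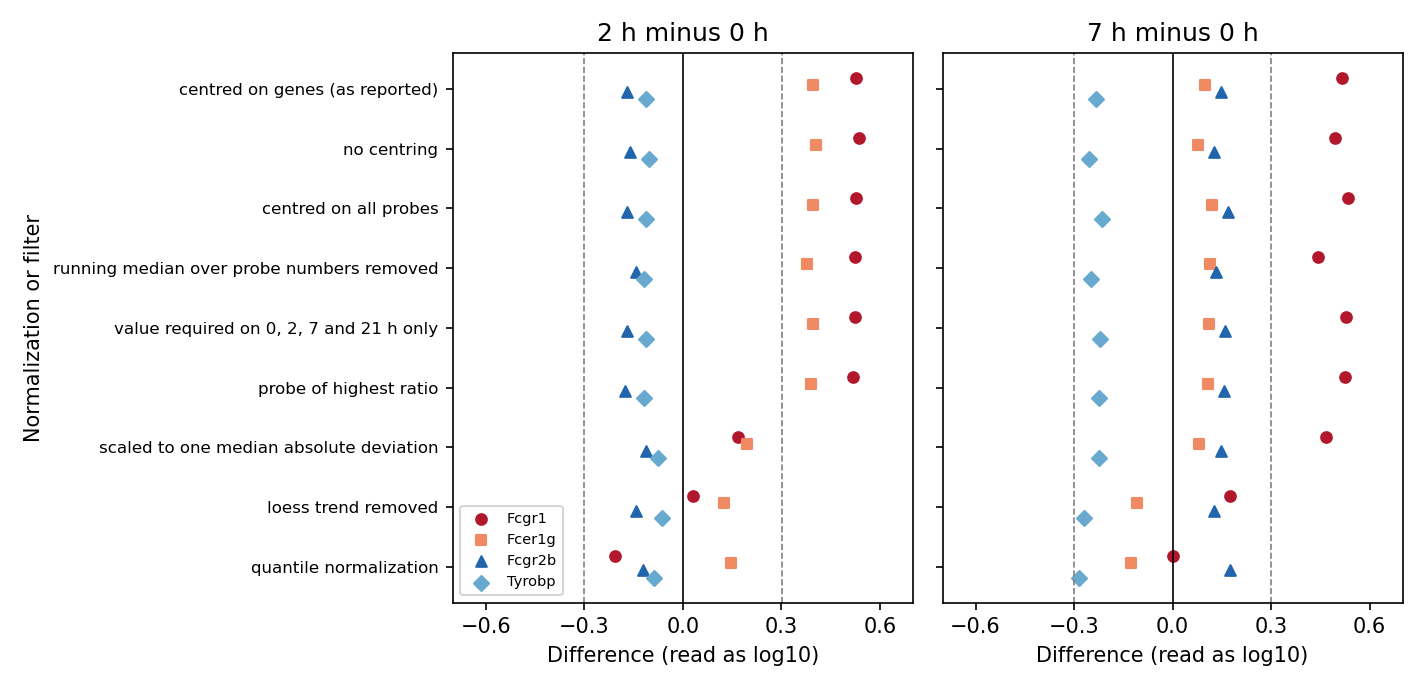
Difference from 0 h (horizontal axes, read as log10) of the 4 members at 2 h (left) and 7 h (right) under each normalization or filter (vertical axis); each point is 1 probe on 1 array against 1 array, and dashed lines mark 2-fold. Fcgr1 and Fcer1g lie past 2-fold at 2 h in the upper 6 rows and inside it in the lower 3, where the width or trend of the ratios was adjusted.

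At 0.5 h the 2 members above embryo lay on opposite sides of their 0 h values. Fcgr1 was lower by 2-fold or more, with a difference of -0.90, and Fcer1g was higher, with a difference of 0.49. The opposite sides depended on the scaling. Fcer1g at 0.5 h differed by 0.01 after scaling to the 0 h width, by -0.13 with the loess trend removed and by -0.29 after quantile normalization. Under the same settings Fcgr1 differed by -1.03, -2.02 and -1.70, and with the loess trend removed its log ratio at 0.5 h was below embryo, at -0.46. Fcgr2b differed by -0.08 and Tyrobp by -0.14. Past the size rule were 19.9% of all genes upwards and 10.6% downwards. The probe SD at this time, 0.48, was as large as the Fcer1g difference; the Fcgr1 difference was -1.87 times that SD.

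The 0.5 h array had the lowest correlation with the other arrays around each of the 4 probes, by a margin that varied. Over the 400 probes numbered nearest to the Fcgr1 probe, and that probe, its correlation with the mean of the 4 other arrays was 0.56, against 0.78 to 0.91 for the other arrays with the mean of the remaining 3. The same values were 0.43 against 0.78 to 0.94 around Fcgr2b, 0.74 against 0.81 to 0.91 around Fcer1g, and 0.52 against 0.60 to 0.86 around Tyrobp, where the 7 h array was nearly as low (Pearson, across probes of shared arrays, a description). Of the neighbours of the Fcgr1 probe 5.13% were higher by 2-fold at 2 h and 8.51% at 7 h, beside 6.31% and 4.45% of all probes, so at 7 h its surroundings held a higher share than the array. With a running median over 400 probe numbers removed Fcgr1 was at 0.52 and 0.44. Around Fcer1g 3.76% of neighbours were higher by 2-fold at 2 h and 3.02% at 7 h. At 0.5 h and 21 h the shares were 30.3% and 16.5%, beside 19.9% and 5.93% of all probes. At these 2 times the surroundings of Fcer1g thus held a higher share than the array. With the running median removed Fcer1g was at 0.34 at 0.5 h and 0.087 at 21 h. The part of the 0.5 h array in the low Fcgr1 value at that time was not tested.

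**Figure D3:**
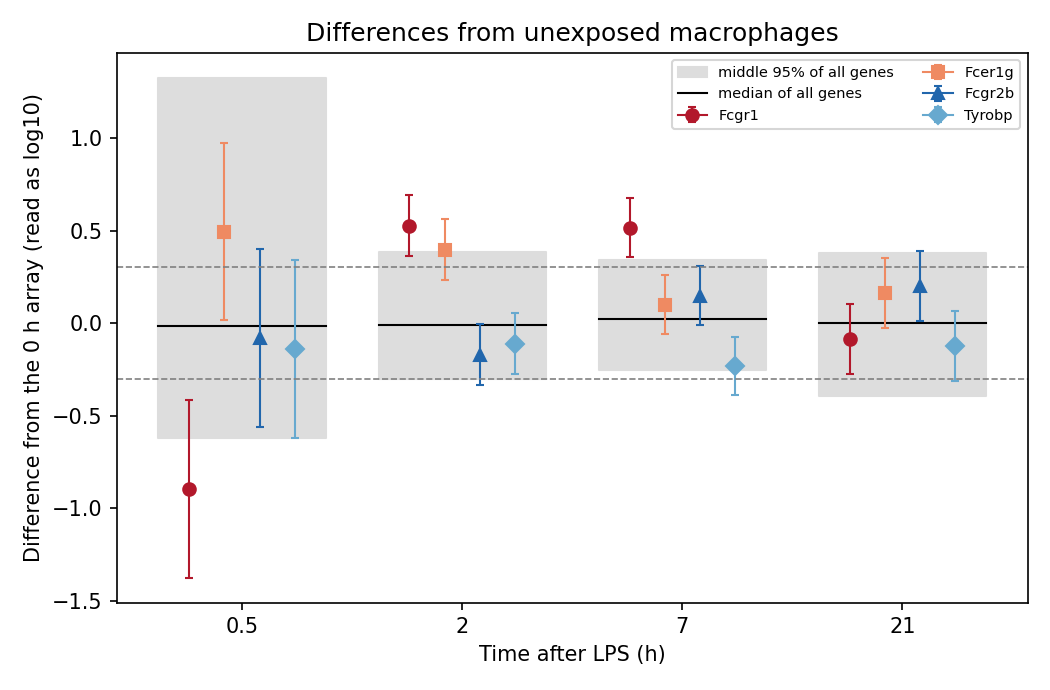
Difference from the 0 h array (vertical axis, read as log10) of the 4 members at each time after LPS (horizontal axis, hours); bars show ± 1 pooled SD between probes of the same gene, grey boxes the middle 95% of 8452 genes, black lines their median and dashed lines 2-fold. Fcgr1 lies above the grey box at 2 h and 7 h and below it at 0.5 h, and the other members lie within it at 0.5, 7 and 21 h.

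Across the 4 arrays other than 0.5 h, the range from lowest to highest log ratio was 0.61 for Fcgr1, wider than that of 94.6% of genes. It was 0.40 for Fcer1g, 0.37 for Fcgr2b and 0.23 for Tyrobp, wider than that of 85.6%, 83.6% and 59.8% of genes. The median range over all genes was 0.20. Genes whose log ratios lay nearest to each member were found by the root mean square difference over the 5 arrays. Nearest to Fcer1g were Lat2 (0.10), an adaptor of immunoreceptor signalling, Alox5ap (0.11), the 5-lipoxygenase activating protein of leukotriene synthesis, and Pde2a (0.11), a cyclic nucleotide phosphodiesterase. Nearest to Fcgr1 were Xist (0.24), the X inactivation RNA, Lyz2 (0.33), the lysozyme of myeloid cells, and Epsti1 (0.40). Xist ran 1.18, 0.50, 1.99, 2.06 and 0.86 from 0 h to 21 h. Like Fcgr1, it was higher at 2 h and 7 h than at 0 h, and lowest at 0.5 h. Fcgr2b lay nearest to Atf2, Flii and Adipor2 (0.05 to 0.06), and Tyrobp to Ppbp, Trrap and Alpl (0.03 to 0.04). These values close to 0 are where most genes lie, so nearness there is common.

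Partner receptors were sparsely measured. Of 13 listed further Fc receptor genes 1 was measured, Fcgrt, which encodes the neonatal Fc receptor that recycles IgG; its log ratio was between -0.06 and 0.09 on the 5 arrays, and its largest difference from 0 h was 0.11 ± 0.17 at 21 h (SD over 2 probes). Of 29 receptors and co-receptors known to pair with Fcer1g or Tyrobp 1 was measured on all arrays, Plxna1, a semaphorin receptor that signals with Tyrobp, higher than 0 h by 0.37 at 7 h. Clec4n, the fungal receptor Dectin-2 that pairs with Fcer1g, had no value at 0.5 h. Its log ratio was 0.29, 1.15, 0.23 and 0.33 on the arrays of 0, 2, 7 and 21 h, higher on the 2 h array than on the other 3, by 0.87 over 0 h. Of 8839 genes with a value on these 4 arrays 6.10% were higher by 2-fold at 2 h, 3.56% at 7 h and 4.79% at 21 h.

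Downstream of the ITAM receptors 9 of 32 listed genes were measured, and 4 of the 9 were at least 2-fold above embryo at 0 h, beside 8.99% of all genes. Syk, the kinase that binds phosphorylated ITAMs, had log ratios of 0.999, 1.14, 1.003, 1.03 and 0.62 on the 5 arrays. It was even from 0 h to 7 h and lower at 21 h, by -0.38 (-0.29, inside 2-fold, with the loess trend removed, and -0.66 after quantile normalization). Lat2 stayed between 0.66 and 0.98 and Vav1, an exchange factor for Rac, between 0.59 and 0.78 outside the 0.5 h array (0.18). Sh3bp2, an adaptor that binds Syk, was higher at 21 h by 0.95 (1.49 after quantile normalization) with a log ratio of 1.18. Pik3r1, the regulatory subunit of PI3-kinase, was lower at 7 h by -0.37 (-0.59 after quantile normalization). None was past 2-fold at 2 h. Pik3r1 was the 1 gene lower at 7 h, beside 1.4% of all genes, and at 21 h 1 was higher (Sh3bp2) and 1 lower (Syk), beside 4.33% and 4.69%, with list medians of 0.08, 0.01 and 0.04, beside medians over all genes of -0.01, 0.02 and 0.00.

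Among inhibitory receptors and phosphatases 8 of 25 were measured. Inpp5d, the phosphatase recruited by the Fcgr2b product, had log ratios of 0.01, 0.57, 0.00, -0.16 and 0.09, near the array median outside the 0.5 h array. Ptpn6, the phosphatase SHP-1, had 0.47, 1.82, 0.74, 0.67 and 0.68, above embryo throughout and highest at 0.5 h. Lilrb4a, an inhibitory receptor, was higher at 2 h by 0.33 and at -0.054 after scaling to the 0 h width, at -0.39 with the loess trend removed and at -0.55 after quantile normalization. Dok2, an inhibitory adaptor, was higher at 2 h by 0.42 (0.27, inside 2-fold, after scaling to the 0 h width), and Ptpn11 at 7 h by 0.36 ± 0.41 (SD over 2 probes), a spread wider than the difference. Past 2-fold upwards were 2 of the 8 genes at 2 h and 1 at 7 h, beside 4.24% and 3.35% of all genes, with none at 21 h and none downwards at these times, and the list medians were 0.06, 0.05 and 0.05. A further 2 genes of the list had no value at 0.5 h and are not in these counts. Pilra, an inhibitory receptor, was higher at 2 h by 1.26 and lower at 7 h by -0.40. Ptprj, a receptor-type phosphatase, was higher at 2 h by 0.53 and lower at 7 h by -0.33. Both were highest on the 2 h array.

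Of the actin machinery of phagocytosis 17 of 29 genes were measured, and 9 of them were at least 2-fold above embryo at 0 h, beside 8.99% of all genes. Arpc4, a subunit of the Arp2/3 complex that branches actin filaments, was higher by 0.42, 0.51 and 0.45 at 2, 7 and 21 h, on 1 probe. Arpc5, another subunit, was higher at 21 h by 0.38 ± 0.13 (SD over 2 probes; 0.60 after quantile normalization), whereas Arpc2 and Arpc1b did not reach 2-fold at any time. None of the 17 was lower by 2-fold at 2, 7 or 21 h, and the list medians were 0.03, 0.06 and 0.03. Over the 5 lists together, 36 of 128 genes were measured, and 8.33% of them were higher by 2-fold at each of 2, 7 and 21 h, 3 genes each time, beside 4.24%, 3.35% and 4.33% of all genes. The largest difference among these 36 genes was 0.42 at 2 h and 0.51 at 7 h, both of Arpc4, beside 0.53 and 0.52 for Fcgr1. This order depended on the scaling. After scaling to the 0 h width Arpc4 was at 0.32 at 2 h and 0.49 at 7 h, and Fcgr1 at 0.17 and 0.47. With the loess trend removed Arpc4 was at 0.35 and 0.44, and Fcgr1 at 0.03 and 0.17. Among the genes without a 0.5 h value, Pilra and Clec4n exceeded Fcgr1 at 2 h and Ptprj equalled it. Each of these genes stands on 1 probe, and their differences were not recomputed under the other scalings.

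**Figure D4:**
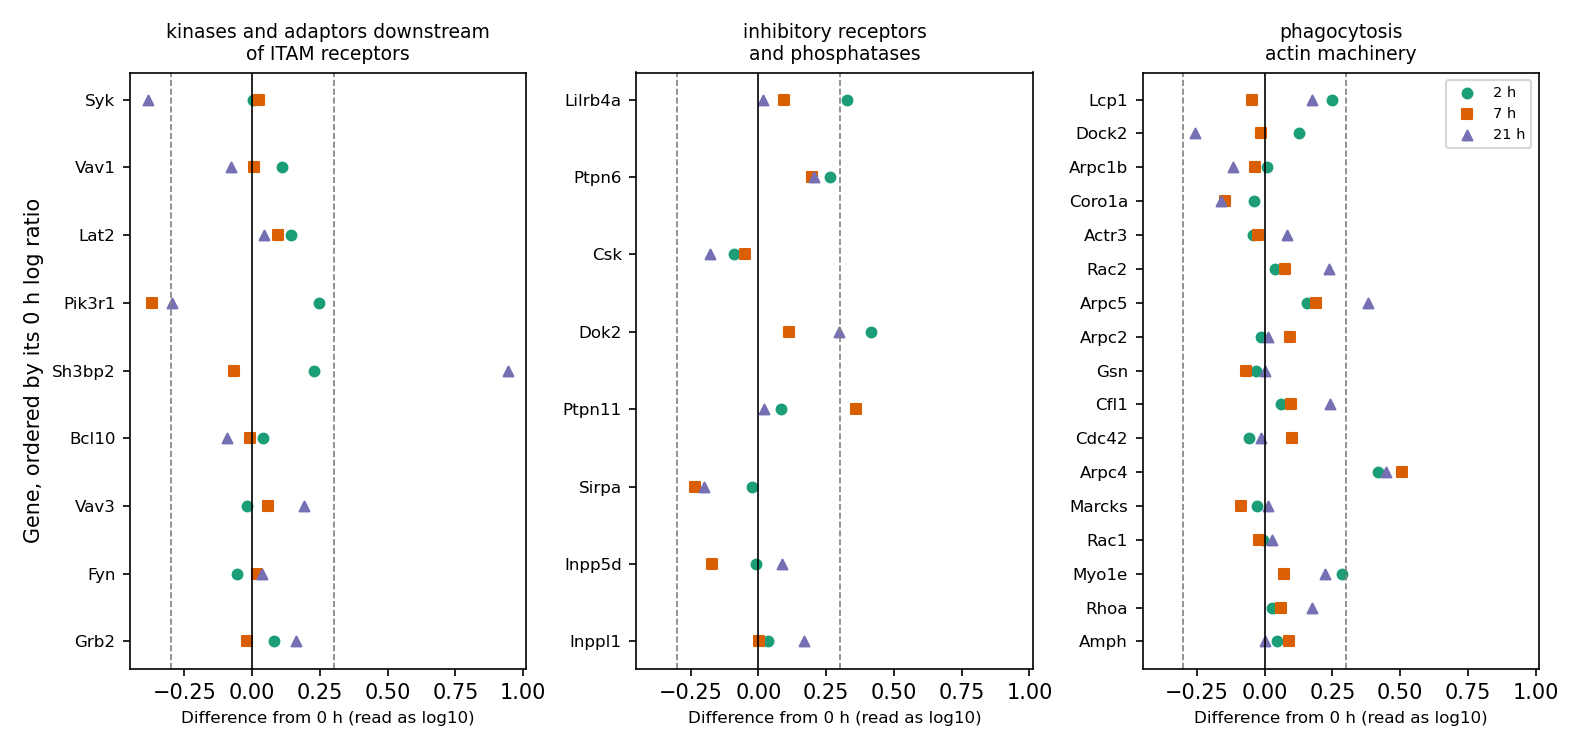
Difference from 0 h (horizontal axes, read as log10) at 2 h (circles), 7 h (squares) and 21 h (triangles) for measured genes of 3 lists, ordered on the vertical axis by their log ratio at 0 h with the highest on top; each point is the mean of a gene's probes on 1 array, and dashed lines mark 2-fold. Most points lie within 2-fold; Sh3bp2 at 21 h (0.95) and Arpc4 at all 3 times lie outside it.

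Other cells that carry these genes were read from marker lists. Of 11 mast cell and basophil markers, cells where Fcer1g serves the IgE receptor, 4 were measured (Cpa3, Tpsb2, Mcpt4 and Gata2); all 4 were below embryo on the 5 arrays, with a summed log ratio between -1.78 and -0.96. Of 11 NK and T cell markers 5 were measured, with a summed log ratio between -0.31 and 1.72, the highest at 0.5 h. Cd3d was higher at 7 h by 0.54. A sum lets markers cancel, and 2 or 3 of these 5 were above 0 on each array. Gzma was at 0.42, 0.34 and 0.39 at 0, 2 and 7 h. At 0.5 h Cd3d was at 1.23 and Gzmb at 0.87. Of 9 neutrophil markers 6 were measured (sum -0.76 to 0.08). On each array 1 or 2 of these 6 were above 0, with Elane between 0.21 and 0.36 on all 5. Of 8 B cell markers 1 was measured, Cd79b (-1.004 to -0.47), and of 7 dendritic cell markers 2 (sum -0.47 to -0.08). The part of other cells in the Fcgr1 and Fcer1g values was not tested beyond these readings. Of all genes past 2-fold at 7 h, 70.6% were higher, and 40.8% with the loess trend removed and 42.7% after quantile normalization. At 0.5 h that share was 65.1%, and 53.0% after quantile normalization, and at 21 h 48.0%, and 58.4% with the running median removed.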

How the data were processed

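The values deposited by the authors are log10 ratios, 1 for each probe on each array; the base is not stated and was read as 10. Per the labels, the cDNA carried Cy3 through amino-allyl coupling. How the authors scanned, corrected and normalized the arrays is not given in the sources used here; signal over background is unknown. Of 19828 probes, 14759 had 1 gene symbol, 170 several and 4899 none here. Entrez identifiers were used to bring 14628 of them to current RefSeq symbols (GRCm38.p6). Probes with a value on all 5 arrays were averaged per gene (8452 genes), and the median gene of every array was set to 0. As deposited, the medians over probes were 0.04, 0.07, 0.05, 0.00 and 0.03 in order of time; the authors' centring stays unknown.

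With 1 array per group no test was run. Genes past 2-fold were counted. Named genes were the members, list genes past 2-fold at 2, 7 or 21 h, and the 3 nearest genes of each member; others were named as examples after their values were seen. Members and lists were chosen with earlier results of these data known. Alternatives were other centrings, scalings, baselines, probe rules, filters and size rules; those for the pathway lists were added after seeing the data. The centring and the size rule were tested on simulated data, with known differences added to the 0 h values and noise of the probe SD. No change of array width, trend or region was simulated, so that test cannot speak to those adjustments. Tables were handled with pandas 2.3.3 and numpy 2.4.6 in Python 3.11.15; the loess (fraction 0.3) came from statsmodels 0.14.6 and the plots from matplotlib 3.10.9.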

Additional observations from a re-analysis of the deposited data

How the results depend on the processing

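Of 352 recomputed log ratios and differences of the 4 members, 319 moved by less than the pooled probe SD. Many of the 352 could hardly move, because reading as log2 leaves each value unchanged. For members of 1 probe, no centring, centring on all probes, the probe rule and the array filter only shift values by a constant of each array. The 319 is therefore no measure of how firm the values are. Among the 352 the sign changed in 17, of which 9 came with another baseline array and 4 were values reported past 2-fold. Of these 4, Fcgr1 at 2 h was at -0.21 after quantile normalization. Fcer1g at 0.5 h was at -0.29 after quantile normalization and -0.13 with the loess trend removed, and at 2 h at -0.10 against the 0.5 h array. The other 13 had been reported inside 2-fold; among them the Fcgr1 log ratio at 0.5 h was -0.46 with the loess trend removed, and Fcer1g at 7 h was at -0.13 (quantile) and -0.11 (loess). Among pathway genes, Lilrb4a at 2 h was at -0.55 (quantile), -0.054 (scaled to one median absolute deviation) and -0.39 (loess), and Arpc5 at 0.5 h at 0.0855 with the probe of highest ratio. The cause of these changes was not tested.

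As reported, 2, 2, 1 and 0 members and 8, 3, 4 and 4 pathway genes were past 2-fold, in either direction, at 0.5, 2, 7 and 21 h. Quantile normalization gave 1 member at 0.5 h and 0 at 2 h and 7 h, and 15, 6, 11 and 10 pathway genes. Over all 8452 genes, those higher and lower went from 1678 and 898 to 1071 and 950 at 0.5 h. The same counts went from 358 and 218 to 330 and 265 at 2 h. At 7 h they went from 283 and 118 to 282 and 379. At 21 h they went from 366 and 396 to 624 and 649. Scaling gave 1 member at 0.5 h, 0 at 2 h and 1 pathway gene at 2 h. Of all genes 199 were then higher and 124 lower at 2 h. The loess gave 1 member at 0.5 h and 0 at 2 h and 7 h, and 14 pathway genes at 0.5 h and 5 at 2 h. Against the 0.5 h array 1, 2 and 2 members and 8, 10 and 10 pathway genes were past it at 2, 7 and 21 h, and against the mean of the other 4 arrays 1 member at 2 h. With a value required on 4 arrays only, 6 pathway genes passed at 2 h, beside 539 higher and 231 lower among 8839 genes.

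A size rule of 1.5-fold gave 2 members at 7 h and 1 at 21 h, and 13, 8, 7 and 15 pathway genes; 3-fold gave 1 member at 2 h, and 4, 0, 1 and 1 pathway genes. Read as log2, no member (0 at each time) and 1, 0, 0 and 0 pathway genes were past 2-fold, and 1 member was above embryo at 0, 2, 7 and 21 h in place of 2. At 0.5 h, 2 members were above embryo in place of 1 with no centring, with the running median removed and at 1.5-fold. For the other size rules, the other baselines and base 2, no counts over all genes were made. No paired analysis was possible because each group held 1 array. Every member stood on 1 probe, and spot intensities were not used.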
